A study of Mus musculus with 6 samples.

Results

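The Wnt pathway in glomerular endothelial cells (GEC) was followed through 58 genes chosen by their place in the pathway: ligands, receptors, the R-spondin axis, secreted inhibitors, the cytoplasmic relay, nuclear factors and feedback targets. Each gene was read by its highest-mean probeset among those annotated with a single gene symbol, and 57 of the 58 had one (Tcf7 had none). A gene was tested where its signal reached 100 on the linear scale, which is 6.64 on the log2 scale, in 3 or more of the 6 arrays. This left 41 Wnt genes of the 12763 genes tested, and 16 Wnt genes lay below that level.

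The cells came from 7 month old mice that carried the Tie2-GFP transgene, in which the Tie2 promoter drives green fluorescent protein in endothelium and in some blood cells. The db/db group was labelled Tie2-GFP/ DB/DB and lacks leptin receptor function, which makes the mice obese and diabetic. The normal group was labelled Tie2-GFP/ +/+. Glomeruli were sieved, dissociated and sorted for the fluorescent cells, and RNA of each sample was read on 1 Affymetrix Mouse Gene ST array, with 3 biological replicates per group. How many mice gave each sample is not stated in the sources used here, so the p-values measure the spread between these samples.

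As background, Wnt proteins are lipid-bearing ligands that bind Frizzled receptors and the coreceptors Lrp5 and Lrp6. Without a ligand, a complex built on Axin and Apc has β-catenin phosphorylated and destroyed. With one, Dishevelled is recruited to the receptor, β-catenin accumulates and joins TCF/LEF factors in the nucleus, and targets such as Axin2, itself a brake on the pathway, are transcribed. In vessels of the retina and brain, Fzd4 with its partner Tspan12 also answers norrin, a ligand that is no Wnt, and this signal is known for its part in vessel growth and the blood-brain barrier.

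Array medians lay between 7.00 and 7.04, and the correlation between arrays over all 35557 probesets was 0.954 to 0.971. Pairs within a group had a mean of 0.9644 and pairs between groups one of 0.9638. Normal replicate 2 stood apart, at 65.7 on a first principal component (30.47% of the variance) on which the other 5 arrays lay between -18.5 and -7.8. Some results that rest on normal replicate 2 are given with and without it, but not all, as for Dvl1 and Lrp6. All 12 endothelial markers were above the level, and their summed linear signal was 65800 to 68200 in db/db arrays against 65800 to 66600 in normal arrays. Of these 12, 5 had all db/db arrays above all normal arrays (Kdr, Pecam1, Cdh5, Eng and Egfl7), beside 7.39% of all genes tested. For 3 the db/db arrays lay below (Tek, Ehd3 and Flt1), beside 5.92% of all genes. None of the 12 passed the adjusted threshold. Tek, the gene of Tie2 itself, read 12.18, 12.48 and 12.26 in db/db arrays, against 12.59, 12.55 and 12.77 in normal arrays, a change of -0.33 ± 0.12 (unadjusted p = 0.03215 by limma). Cdh5, which encodes VE-cadherin, had a change of 0.21 ± 0.08 (unadjusted p = 0.03988 by limma). The Lepr probeset was below the level in all 6 arrays. It reads the gene as a whole, so it does not check the splice mutation of db/db mice. Summed signals of 2 other cell type lists did not overlap between the groups. The podocyte list, with 10 of 12 markers measured and 8 above the level, gave 6990 to 7160 in db/db arrays and 7860 to 9240 in normal arrays. The distal nephron list, with 8 of 8 measured and 5 above the level, gave 930 to 1090 in db/db arrays and 793 to 911 in normal arrays. That sum included Calb1, which failed the filter and reached the level only in 2 db/db arrays. Calb1 read 5.85, 7.41 and 6.82 in db/db arrays, against 5.34, 5.44 and 5.59 in normal arrays. With its signal taken out, the distal nephron sums of the groups overlap. Umod, among the 5 markers above the level, reached it in the 3 db/db arrays alone. The sums of the mesangial, parietal, proximal tubule, leukocyte and erythrocyte lists overlapped between the groups, with the leukocyte sum most spread, at 911 to 1970 in db/db arrays and 1110 to 1170 in normal arrays. Of the 3 leukocyte markers above the level, 2 had a lower mean in db/db and 1, Cd68, a higher one. Cd68 read 7.95, 7.59 and 6.91 in db/db arrays, against 6.63, 6.72 and 6.81 in normal arrays. Its change was 0.76 ± 0.27 (unadjusted p = 0.03083, adjusted p = 0.752 by limma), and its groups did not overlap, beside 7.39% of all genes.

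No Wnt gene passed an adjusted p of 0.05 when db/db and normal GEC were compared by limma, with Benjamini-Hochberg adjustment over 20661 probesets. Neither did any other probeset (0%, 0 of 20661), and the smallest adjusted p over all of them was 0.203. At an unadjusted p under 0.05, which 1320 probesets met, 1 Wnt gene was higher in db/db (Tspan12) and 1 was lower (Axin2). Over all genes the shares were 3.49% higher and 3.07% lower, and 2 of 41 is no larger a share than these give together. All 3 db/db arrays lay above all 3 normal arrays for 1 Wnt gene (Tspan12; 7.39% of all genes) and below them for 3 (Axin2, Nkd2 and Apc; 5.92% of all genes). Nkd2 reached the level in normal arrays alone, so its place among these 3 was fixed by the filter. A screen after the study, the methods' t-test without adjustment and a change over 1.5-fold, took 0 Wnt genes as higher (0.784% of all genes) and 1, Axin2, as lower (0.494% of all genes).

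Most differences were small. The mean was higher in db/db for 19 genes and lower for 22, and the median log2 change was -0.004, beside 0.012 over all genes. Changes stayed within 0.25 either way for 36 of 41 Wnt genes, beside 80.08% of all genes. The 95% confidence interval of the change lay inside a 1.5-fold change either way for 34 of the 41, beside 66.4% of all genes. Only 22 of the 41 had a mean at or above 200 on the linear scale in both groups, and low signals can narrow an interval. The 7 genes whose interval reached further were Axin2, whose interval lay wholly beyond a 1.5-fold decrease, and Dkk2, Nkd1, Sfrp2, Dvl1, Dvl3 and Tcf7l1, whose intervals included both 0 and a 1.5-fold change. Replicates differed by a median SD of 0.11 in db/db and 0.13 in normal arrays, on the log2 scale, beside 0.13 and 0.16 over all genes.

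**Figure D1:**
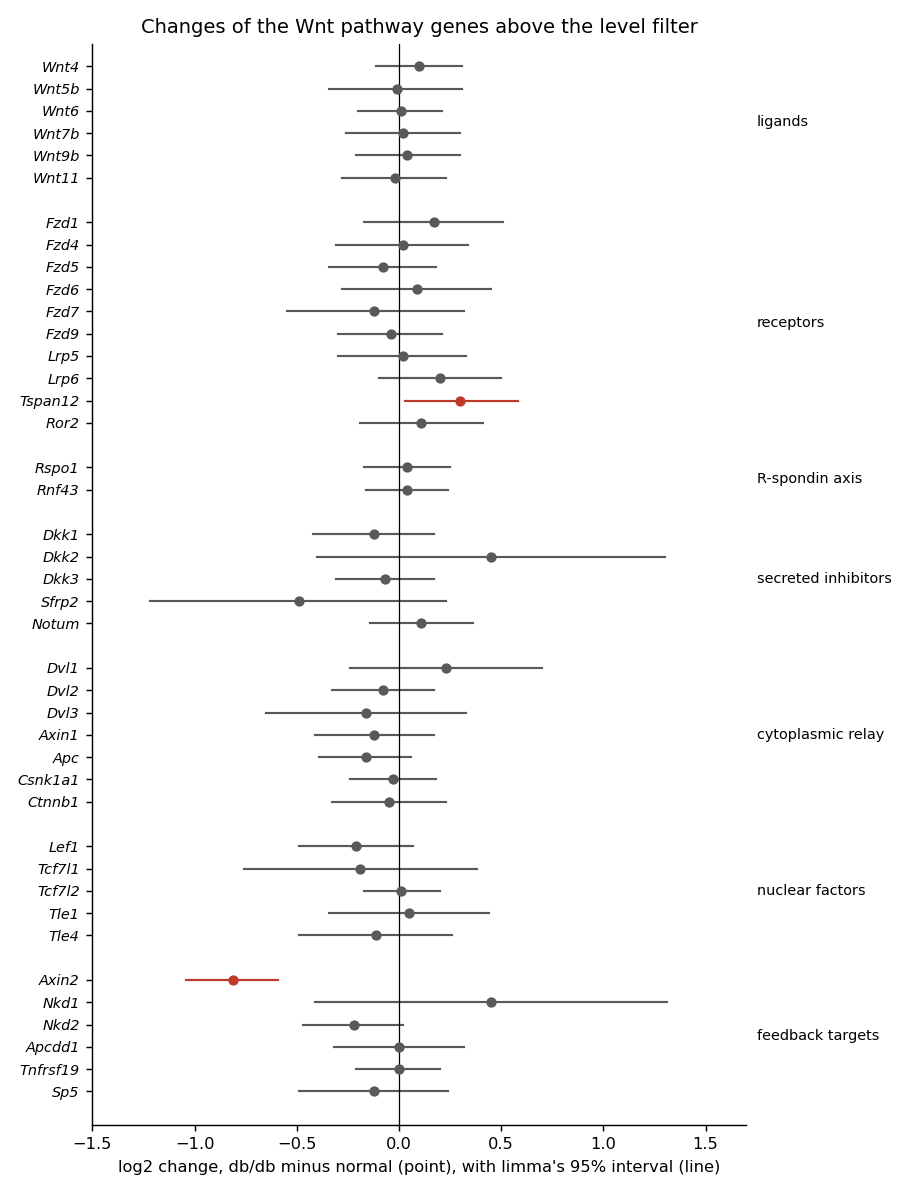
Log2 change (db/db minus normal) of the 41 Wnt genes tested, with the 95% confidence interval of limma as bars, grouped by role in the pathway, and red for an unadjusted p under 0.05. The Axin2 interval, -1.04 to -0.59, is the only one that lies wholly below 0, and that of Tspan12, 0.03 to 0.58, the only one wholly above it.

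Axin2 encodes the scaffold of the β-catenin destruction complex that Wnt signalling itself induces. Its log2 signal was 8.03, 7.95 and 7.99 in db/db arrays, against 8.80, 8.93 and 8.69 in normal arrays. All db/db arrays were low and all normal arrays high, and the groups did not overlap. The means were 7.99 ± 0.04 in db/db and 8.81 ± 0.12 in normal GEC (SD, n = 3 each). The log2 change was -0.81 ± 0.09 (SE), which is 1.76-fold lower in db/db, with an unadjusted p of 0.0001472 by limma and an adjusted p of 0.256. Of all genes tested, 5 had a smaller p. In bulk samples such as these, fewer cells of a type and less RNA per cell cannot be told apart.

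The podocyte list was also lower in db/db, as given above. Most of its signal came from Podxl and Clic5, which glomerular endothelium also makes. Without them the sum of the other 8 markers was 1230 to 1330 in db/db arrays and 1340 to 1650 in normal arrays. Of the 8 podocyte markers above the level, 5 had a lower mean in db/db and 3 a higher one. The 3 with groups apart and db/db below were Cdkn1c, Podxl and Clic5 (5.92% of all genes). For 1, Wt1, the groups were apart with db/db above (7.39% of all genes). Cdkn1c read 8.47, 8.58 and 8.40 in db/db arrays, against 8.85, 9.07 and 8.74 in normal arrays, a change of -0.40 ± 0.12 (unadjusted p = 0.01452 by limma). Npnt had a change of -0.61 ± 0.29, Podxl -0.27 ± 0.10, Clic5 -0.20 ± 0.08 and Col4a3 -0.05 ± 0.10. The 3 with a higher mean were Nphs1 (0.06 ± 0.11), Synpo (0.24 ± 0.16) and Wt1 (0.08 ± 0.07). Ptpro and Tcf21 were below the level. The part of podocyte, distal nephron or leukocyte RNA in the Axin2 difference, or in those of the other Wnt genes, was not tested.

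**Figure D2:**
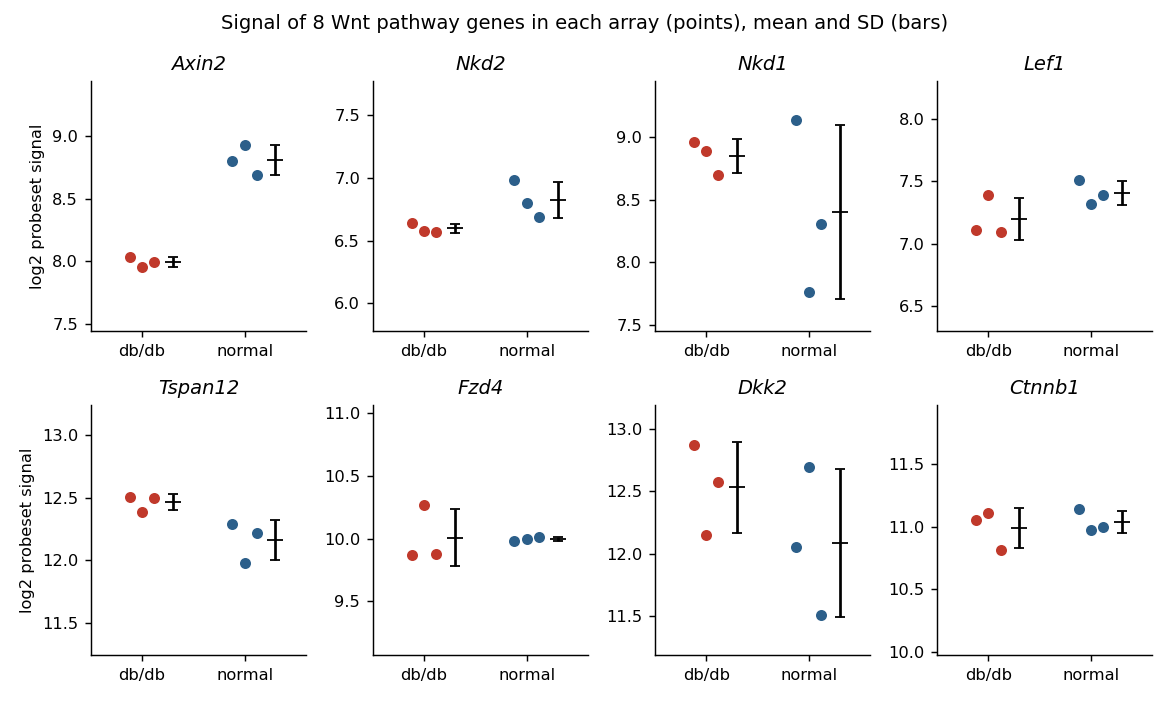
Log2 signal of 8 Wnt genes in each of the 6 arrays, db/db left of normal, with points for arrays and, beside them, the group mean with its SD, on axes of the same span. The 3 Axin2 points of db/db (7.95 to 8.03) sit below the 3 of normal GEC (8.69 to 8.93), while the Dkk2 and Nkd1 points of the groups overlap.

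No other feedback target had an unadjusted p under 0.05. Nkd1 and Nkd2 encode the Naked cuticle proteins, which bind Dishevelled and damp the signal. Nkd2 read 6.64, 6.58 and 6.57 in db/db arrays, against 6.98, 6.80 and 6.69 in normal arrays, and the groups did not overlap. Its log2 change was -0.22 ± 0.10, with an unadjusted p of 0.06911. No db/db array reached the level for Nkd2, with replicate 1 just under it before rounding, and all 3 normal arrays did, so it was tested only because of the normal group, and a gene that enters in this way had to be lower in db/db.

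Nkd1 had a higher mean in db/db, reading 8.96, 8.89 and 8.70 in db/db arrays, against 9.14, 7.76 and 8.31 in normal arrays. The db/db arrays were close together and the normal arrays spread on both sides of them. The log2 change was 0.45 ± 0.35, with an unadjusted p of 0.2469. The SD over normal arrays was 0.69, and 2.304% of all genes had a larger one. Without normal replicate 2, the lowest array, the change was 0.13. Without normal replicate 1, the highest and the array most against the difference, it was 0.82 ± 0.20 (unadjusted p = 0.01043, adjusted p = 0.665 by limma).

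Sp5, a transcription factor gene induced by Wnt in many tissues, read 6.69, 6.77 and 6.81 in db/db arrays, against 6.71, 7.18 and 6.75 in normal arrays. Only normal replicate 2 stood out, and the change of -0.12 ± 0.15 became 0.03 without it. Apcdd1 encodes a membrane protein that binds Wnt and Lrp5, and read 7.06, 7.37 and 7.04 in db/db arrays, against 7.05, 7.30 and 7.13 in normal arrays. Tnfrsf19, a receptor of the tumour necrosis factor family, read 6.66, 6.68 and 6.72 in db/db arrays, against 6.79, 6.66 and 6.63 in normal arrays. Both had a log2 change of 0.00 and overlapping groups.

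The sequence just before the start of Axin2 is shown because that gene carried the largest difference among the Wnt genes, with that of Tspan12, the gene that differed the other way, and of Sp5, a feedback target with matches to the TCF/LEF motif. These are the 250 bases before the annotated start, from RefSeq (GRCm38.p6), written 5′ to 3′ on the strand of the gene: chr11:108920099-108920348 on the plus strand for Axin2, chr6:21852534-21852783 on the minus strand for Tspan12 and chr2:70474673-70474922 on the plus strand for Sp5. Capitals mark matches to the motif, searched on both strands as AACAAAG or ATCAAAG or TACAAAG or TTCAAAG.
Axin2: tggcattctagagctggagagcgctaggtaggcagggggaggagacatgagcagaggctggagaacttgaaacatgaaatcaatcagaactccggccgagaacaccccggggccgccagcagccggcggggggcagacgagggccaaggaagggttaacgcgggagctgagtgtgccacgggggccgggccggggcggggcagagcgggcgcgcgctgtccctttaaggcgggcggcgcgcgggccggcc
Tspan12: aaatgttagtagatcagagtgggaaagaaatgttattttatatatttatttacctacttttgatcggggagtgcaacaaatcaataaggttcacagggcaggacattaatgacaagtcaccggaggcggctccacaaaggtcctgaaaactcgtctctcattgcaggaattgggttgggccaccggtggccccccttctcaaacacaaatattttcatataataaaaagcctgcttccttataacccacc
Sp5: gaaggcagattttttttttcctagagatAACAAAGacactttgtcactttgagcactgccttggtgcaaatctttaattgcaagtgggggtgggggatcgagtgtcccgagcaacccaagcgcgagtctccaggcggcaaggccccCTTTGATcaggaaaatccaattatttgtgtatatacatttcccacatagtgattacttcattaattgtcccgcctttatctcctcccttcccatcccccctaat
Axin2 and Tspan12 had no match in this window, and their G and C content was 69.2% and 42.0%. Sp5 had AACAAAG 222 bases and, as the reverse complement, CTTTGAT 104 bases before the start. Of the 40 Wnt genes with a sequence in the table used, with a chromosome left out, 9 had a match (22.5%), beside 4527 of 27025 genes (16.8%). The share over all genes was taken from the whole table, without leaving that chromosome out. The others were Dkk1, Fzd7, Lef1, Ndp, Tcf7l2, Tnfrsf19, Wnt11 and Wnt5b. Some genes have several starts, and over windows the shares were 17.3% of 52 and 14.8% of 32851. A match is a description of these letters and not a binding site.

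Of the 10 receptors and partners tested, 7 had a higher mean in db/db, and of these Tspan12 had an unadjusted p under 0.05. It encodes a tetraspanin that joins Fzd4 and strengthens the norrin signal. Tspan12 read 12.51, 12.39 and 12.50 in db/db arrays, against 12.29, 11.98 and 12.22 in normal arrays. The db/db arrays were all above the normal arrays. The means were 12.46 ± 0.07 in db/db and 12.16 ± 0.16 in normal GEC (SD, n = 3 each), a 1.23-fold difference. The log2 change was 0.30 ± 0.11, with an unadjusted p of 0.03433 and an adjusted p of 0.754 by limma. The unadjusted p was 0.09097 without db/db replicate 1, 0.09134 without db/db replicate 3, 0.0716 without normal replicate 2 and 0.05242 without normal replicate 3, with changes from 0.21 to 0.37.

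Fzd4, the receptor that Tspan12 serves, read 9.87, 10.27 and 9.88 in db/db arrays, against 9.98, 10.00 and 10.01 in normal arrays. The normal arrays lay within the db/db range, and the change was 0.02 ± 0.13 with an interval of -0.31 to 0.34. Ndp, which encodes norrin, was below the level, at 5.80 to 5.91 in db/db arrays and 5.89 to 6.26 in normal arrays. The coreceptor Lrp6 read 9.80, 9.96 and 10.00 in db/db arrays, against 9.79, 9.52 and 9.86 in normal arrays. Its groups overlapped, normal replicate 2 was its lowest array, and the change was 0.20 ± 0.12. Lrp5, the other coreceptor, had a change of 0.02 ± 0.13.

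The other Frizzled receptors tested had changes between -0.12 and 0.17. Fzd1 had 0.17 ± 0.14, Fzd6 had 0.09 ± 0.15, Fzd9 had -0.04 ± 0.10, Fzd5 had -0.08 ± 0.11 and Fzd7 had -0.12 ± 0.18. Without normal replicate 3, its lowest array, the Fzd7 change was -0.30 ± 0.11 (unadjusted p = 0.03918, adjusted p = 0.680 by limma). Ror2, a receptor for Wnt5a outside the β-catenin branch, had 0.11 ± 0.12. Of the 15 receptors and partners listed, 10 were tested, and Fzd2, Fzd3, Fzd8, Fzd10 and Ror1 were below the level. Ror1 lies on chromosome 4 with 7 protein-coding genes between it and Lepr, and read 6.22, 6.26 and 6.16 in db/db arrays, against 6.32, 6.26 and 6.26 in normal arrays.

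Of the 10 ligands listed, norrin included, 6 were tested, and none had a change beyond 0.10. Wnt4, which nephron formation needs, read 8.36, 8.26 and 8.43 in db/db arrays, against 8.30, 8.22 and 8.23 in normal arrays. The groups overlapped, the change was 0.10 ± 0.08, and a second probeset of the gene gave -0.01 ± 0.14. Wnt9b, a ligand of the ureteric bud that acts before Wnt4, read 7.73, 7.61 and 7.54 in db/db arrays, against 7.64, 7.67 and 7.45 in normal arrays, a change of 0.04 ± 0.10. Wnt7b, Wnt6, Wnt5b and Wnt11 had changes from -0.02 to 0.02. The interval of every one of these 6 ligands lay inside a 1.5-fold change. Apart from Wnt4, their group means were only 6.73 to 7.63, near the array medians of 7.00 to 7.04. At such signals a narrow interval need not mean unchanged expression. Wnt2, Wnt2b and Wnt5a were below the level.

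R-spondins amplify Wnt signals by taking the ubiquitin ligases Rnf43 and Znrf3, which clear Frizzled from the surface, away through Lgr receptors. Of these 6 genes 2 were tested. Rspo1 read 7.08, 6.94 and 7.10 in db/db arrays, against 7.05, 6.99 and 6.97 in normal arrays. Rnf43 read 6.67, 6.69 and 6.76 in db/db arrays, against 6.74, 6.67 and 6.59 in normal arrays. The groups overlapped for both, with changes of 0.04 ± 0.08 each. Lgr4, Lgr5, Znrf3 and Rspo3 were below the level. Rspo3, the member of the family best known from endothelium, read 6.43, 5.68 and 6.39 in db/db arrays, against 5.83, 5.88 and 5.64 in normal arrays, so 2 db/db arrays were high and the third lay among the normal arrays.

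Of the 8 secreted inhibitors, 5 were tested, and Dkk2 was among the most variable Wnt genes. Its protein binds Lrp5 and Lrp6 and, in mice, has also been tied to vessel growth. Dkk2 read 12.87, 12.15 and 12.57 in db/db arrays, against 12.05, 12.69 and 11.51 in normal arrays. The groups overlapped, with normal replicate 2 above all but the highest db/db array. The change was 0.45 ± 0.34 with an interval of -0.40 to 1.30, and 3.871% of all genes had a larger SD over normal arrays. Without normal replicate 2 the change was 0.75 ± 0.28 (unadjusted p = 0.04416, adjusted p = 0.752 by limma), and without normal replicate 3 it was 0.16.

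Sfrp2 encodes a decoy that holds Wnt proteins outside the cell. It read 6.81, 6.34 and 6.25 in db/db arrays, against 6.86, 6.51 and 7.51 in normal arrays. The groups overlapped, and only 1 db/db and 2 normal arrays reached the level, the fewest that let a gene be tested. The change was -0.49 ± 0.29, with an unadjusted p of 0.1469, or -0.72 ± 0.28 (unadjusted p = 0.04978, adjusted p = 0.770 by limma) without normal replicate 2, its lowest normal array. Sfrp5, at the level in 2 arrays, lay just below that limit, with 6.48, 6.54 and 6.47 in db/db arrays, against 6.71, 6.67 and 6.52 in normal arrays. Notum, the enzyme that strips the lipid from Wnt proteins, read 7.28, 7.25 and 7.47 in db/db arrays, against 7.24, 7.31 and 7.13 in normal arrays, a change of 0.11 ± 0.10. Dkk1 had -0.12 ± 0.12 and Dkk3 -0.07 ± 0.10. Sfrp1 and Wif1 were below the level.

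The cytoplasmic relay was measured whole, with 7 of 7 genes at the level in all arrays. Ctnnb1, which encodes β-catenin, read 11.05, 11.11 and 10.81 in db/db arrays, against 11.14, 10.97 and 11.00 in normal arrays. The groups overlapped, and the change was -0.05 ± 0.11 with an interval of -0.33 to 0.23. Csnk1a1, the kinase that primes β-catenin for destruction, read 11.95, 11.94 and 11.80 in db/db arrays, against 11.87, 11.93 and 11.98 in normal arrays, a change of -0.03 ± 0.08. Apc, a scaffold of the destruction complex, read 9.21, 9.29 and 9.41 in db/db arrays, against 9.54, 9.43 and 9.42 in normal arrays. The groups did not overlap, by the narrow step between 9.41 and 9.42, and the change of -0.16 ± 0.09 had an unadjusted p of 0.1278. Axin1, the paralogue of Axin2 that does not need Wnt to be made, had -0.12 ± 0.12.

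The Dishevelled genes, whose proteins carry the signal from Frizzled to the destruction complex, differed in sign. Dvl1 had a change of 0.23 ± 0.19, Dvl2 one of -0.08 ± 0.10 and Dvl3 one of -0.16 ± 0.20. For Dvl1 the lowest array was normal replicate 2, at 7.25. Dvl3 read 7.91, 8.61 and 8.10 in db/db arrays, against 8.27, 8.50 and 8.32 in normal arrays. Its highest value was db/db replicate 2, without which the change was -0.36 ± 0.13 (unadjusted p = 0.03802, adjusted p = 0.806 by limma).

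Of the nuclear factors, 5 of the 6 listed were tested. Tcf7l2, which can activate or repress targets, read 10.34, 10.26 and 10.34 in db/db arrays, against 10.31, 10.25 and 10.33 in normal arrays, a change of 0.01 ± 0.08 with an interval of -0.17 to 0.20. Lef1, both a partner of β-catenin and a target of it, read 7.11, 7.39 and 7.09 in db/db arrays, against 7.51, 7.32 and 7.39 in normal arrays. Of the db/db arrays 2 were below all normal arrays and replicate 2 lay among them. The change was -0.21 ± 0.11 (unadjusted p = 0.1155 by limma), and without db/db replicate 2 it was -0.31 ± 0.10 (unadjusted p = 0.03303, adjusted p = 0.794 by limma). Tcf7l1, mainly a repressor, read 8.19, 8.33 and 8.01 in db/db arrays, against 8.03, 8.85 and 8.23 in normal arrays. Its change of -0.19 ± 0.23 rested on normal replicate 2 and was 0.05 without it. The corepressors Tle1 and Tle4 had changes of 0.05 ± 0.16 and -0.11 ± 0.15.

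**Figure D3:**
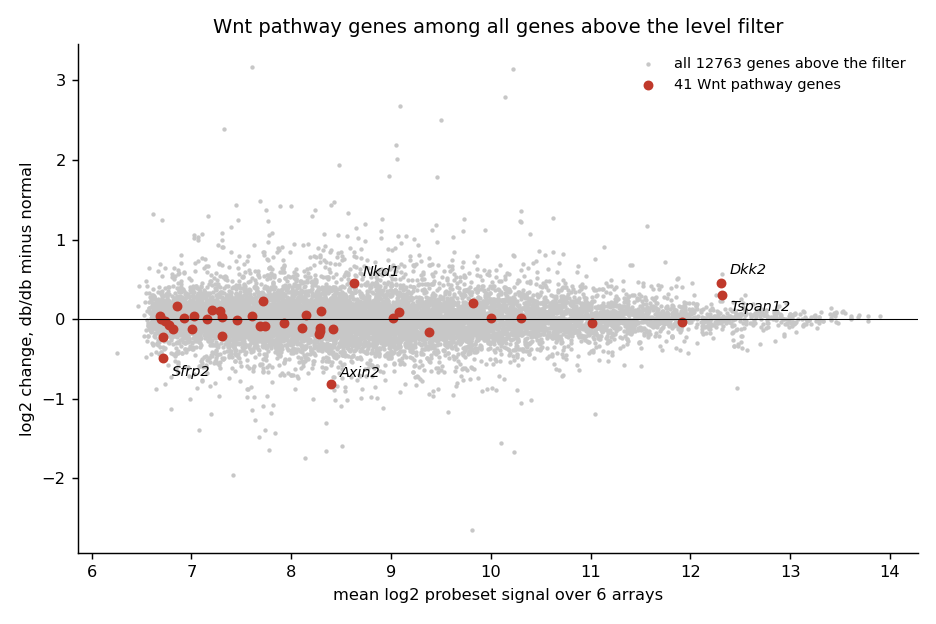
Log2 change (db/db minus normal) against mean log2 signal for the 12763 genes tested, with the 41 Wnt genes marked. Axin2, at -0.81, lies below the other Wnt genes, whose changes run from -0.49 to 0.45.

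The rest of the pathway was read through 118 further names (some of them alternative spellings of 1 gene), of which 110 had a probeset and 86 were tested. None passed the adjusted threshold by limma. At an unadjusted p under 0.05, 4 were higher in db/db and 2 lower, beside the shares of 3.49% and 3.07% given for all genes, and the median change was 0.024. Groups did not overlap for 7 that were higher and 4 that were lower, beside 7.39% and 5.92% of all genes. The same screen took 2 as higher, Tbl1xr1 and Cldn5, and 0 as lower, beside 0.784% and 0.494% of all genes.

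Tbl1xr1, which exchanges corepressors for coactivators on target genes, read 10.28, 10.60 and 11.01 in db/db arrays, against 9.88, 9.65 and 9.98 in normal arrays. The change was 0.80 ± 0.21 (unadjusted p = 0.009378, adjusted p = 0.616 by limma), and a second probeset gave 0.89 ± 0.43 with overlapping groups. Cldn5, a tight junction gene that Wnt signalling keeps on in brain endothelium, read 10.44, 9.43 and 9.96 in db/db arrays, against 9.07, 9.11 and 8.73 in normal arrays, a change of 0.98 ± 0.27. For Tbl1xr1 and Cldn5 every db/db array was above every normal array. Sox17, an endothelial transcription factor gene and also a Wnt target there, was lower, with 8.91, 9.09 and 9.07 in db/db arrays, against 9.25, 9.57 and 9.38 in normal arrays, a change of -0.38 ± 0.11.

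Sost, which encodes sclerostin, a secreted inhibitor that binds Lrp5 and Lrp6, read 8.67, 8.98 and 8.87 in db/db arrays, against 8.51, 8.45 and 8.33 in normal arrays. Porcn, the enzyme that puts the lipid on Wnt proteins, read 8.71, 8.29 and 8.43 in db/db arrays, against 8.08, 8.05 and 8.15 in normal arrays. Both were higher in every db/db array, by 0.41 ± 0.11 and 0.38 ± 0.13. Prickle1, of the planar polarity branch, read 8.47, 8.75 and 8.71 in db/db arrays, against 9.01, 9.30 and 8.94 in normal arrays, a change of -0.44 ± 0.14. By limma the unadjusted p was 0.01132 for Sost, 0.01775 for Sox17, 0.0192 for Prickle1, 0.02553 for Porcn and 0.01256 for Cldn5.

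**Figure D4:**
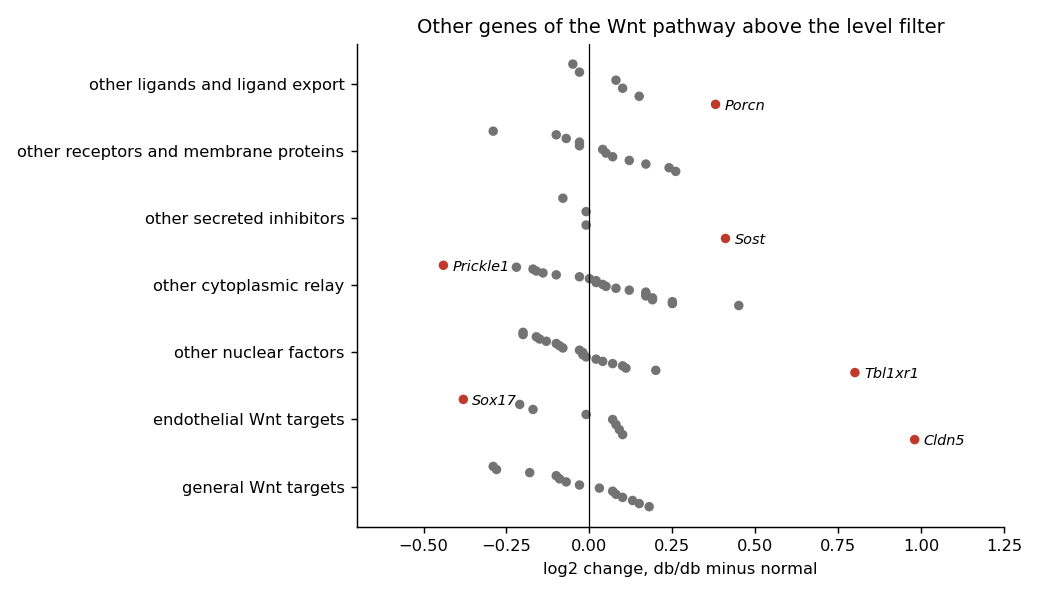
Log2 change (db/db minus normal) of the 86 further pathway genes tested, 1 point per gene, by role, with those of an unadjusted p under 0.05 in red and named. Porcn, Sost, Tbl1xr1 and Cldn5 lie at 0.38 to 0.98, and Prickle1 and Sox17 at -0.44 and -0.38.

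Some other genes are often read as Wnt targets or as parts of its machinery. The glucose transporter gene Slc2a1, kept on by Wnt in brain endothelium, had a change of -0.21, and Plvap, which Wnt keeps off there, had 0.10. The cell cycle gene Ccnd1 had 0.13, the Wnt carrier gene Wls 0.15 and the kinase gene Gsk3b 0.17. None of these 5 had an unadjusted p under 0.05. Of the 14 general Wnt targets tested, Ccnd1 among them, 7 had a higher mean in db/db and 7 a lower one. Their median change was 0.001. Myc, chosen after its values were seen, was below the level in all 3 normal arrays. It read 7.23, 7.36 and 6.12 in db/db arrays, against 5.60, 5.74 and 5.51 in normal arrays. Every db/db array was above every normal array, as for 7.39% of the genes tested. With no level filter, Myc had an unadjusted p of 0.01131 and an adjusted p of 0.839 by limma. Myc reached the level in 2 arrays, so it was left out of the main comparison.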

How the data were processed

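RNA of sorted GEC, 3 db/db and 3 normal samples, was measured on arrays. The authors deposited log2 signal for each probeset and array. The study's methods give RMA normalisation in GeneSpring, while the submitters' processing notes name MAS5 alone. Sorted values of the arrays differed by at most 0.114, so they were used as they stand. Changes are therefore relative to the rest of each array, and precision is limited by the number of arrays.

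The platform annotation paired 21789 of 35557 probesets with 1 gene symbol, 1621 with more than 1 and the remaining 12147 with none. The test was run on the 20661 probesets that reached a linear signal of 100 in 3 or more arrays, using lmFit and eBayes of limma 3.58.1 (R 4.3.3), two-sided, as db/db minus normal. P-values were adjusted by Benjamini-Hochberg over these probesets, with a threshold of 0.05. Errors of changes are moderated SE. With 3 against 3 arrays an exact permutation p stops at 0.1, so none was used. Wnt genes with an unadjusted p under 0.05, those with the 2 highest means in their role and feedback targets were given per array, and so were the 6 further pathway genes with the smallest p. Other genes given per array were chosen after their values were seen. The Wnt genes and all lists were chosen with earlier results of these data known.

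Same-numbered arrays did not deviate together (r = -0.004, 0.035 and -0.030), so replicate numbers were not taken as pairs. Alternatives were other scalings, filters, variance priors and probeset choices, array weights, a replicate block, the methods' t-test and leaving out each array. The fit was tested on simulated data. Promoter bases and gene order came from RefSeq tables (GRCm38.p6), where 40 Wnt genes had promoter bases with a chromosome left out. Python 3.11.15 with matplotlib 3.10.9 drew the figures.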

Additional observations from a re-analysis of the deposited data

How the results depend on the processing

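No Wnt gene passed the adjusted threshold under any of the 19 settings. Over all probesets the count passing was 0, and 1 when only probesets with a single gene symbol or 1 probeset per gene were tested. Axin2 was lower in db/db in all 19 settings, with a log2 change of -0.87 to -0.75, an unadjusted p of 8.515e-05 to 0.002062 and an adjusted p of 0.128 to 0.713. With the replicate number as a block, its unadjusted p was 0.002062 and its adjusted p 0.570, and the block changed no call: 2 Wnt genes stayed under an unadjusted p of 0.05 and 0 passed the adjusted threshold. Tspan12 was higher in all 19 settings, with an unadjusted p under 0.05 in 15. Nkd2, which entered the main comparison only through the normal arrays, was under 0.05 with quantile normalisation, median centring and array weights (unadjusted p = 0.04322, 0.04979 and 0.03806 by limma).

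The count of Wnt genes under an unadjusted p of 0.05 by limma was 2, and 1 to 4 when 1 array was left out. In the main fit 3.49% of all genes were higher at that p and 3.07% lower. The shares over all genes with 1 array left out are not given here, so these counts are no result about the Wnt genes. Axin2 was among them each time. Without db/db replicate 1 or 3 it stood alone. The rest were Tspan12, Dvl3 and Lef1 without db/db replicate 2, Tspan12 and Nkd1 without normal replicate 1, Dkk2 and Sfrp2 without normal replicate 2, and Fzd7 without normal replicate 3. For each of these genes the array left out was the one in its group most against the difference, so the smaller p adds no support.

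Small changes turned sign. With median centring Fzd4 and Tcf7l2 came to 0.00, just below 0, and with array weights Apcdd1 came to 0.03. Leaving out 1 array gave -0.03 to 0.09 for Wnt9b, -0.11 to 0.07 for Apcdd1, -0.04 to 0.04 for Tnfrsf19, -0.12 to 0.08 for Fzd4, -0.06 to 0.02 for Csnk1a1, -0.11 to 0.04 for Ctnnb1, -0.01 to 0.04 for Tcf7l2, -0.36 to 0.05 for Tcf7l1 and -0.21 to 0.03 for Sp5. The cause was not tested. Signals near the level or the array medians, as for Nkd2, Tnfrsf19, Rnf43 and the ligands other than Wnt4, limit what the arrays can show of those genes.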
